A study of Mus musculus with 6 samples.

Results

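The genes described here are 32 genes of skeletal muscle, measured in RNA from abdominal white adipose tissue (WAT). They were listed by name, as genes of the contractile apparatus, of calcium handling and of the energy and oxygen supply of muscle fibres. The rule uses no measured value, but the list was drawn up with earlier results of these data known. All 32 were found on the array, 31 under their current symbol and Mybpc1 under an older name, among 21052 genes that could be compared. Gene expression was measured on 6 single-colour arrays, 3 for hNAG-1 mice and 3 for wild-type (WT) mice. The hNAG-1 mice carry a transgene for human NAG-1, a secreted protein of the TGF-β superfamily that is also known as GDF15, and belong to a single transgenic line. All mice were C57/BL6 females of 30 wk. RNA of 2 mice was combined for each array and labelled with Cy3, which makes 6 mice per genotype, and no mouse had an array of its own. Because the pools come from different mice, a p-value here weighs a difference against the variation among pools, of which the small number limits the precision.

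Skeletal muscle fibres are packed with sarcomeres, in which thick filaments of myosin slide along thin filaments of actin that are anchored at the Z disc. Calcium released from the sarcoplasmic reticulum binds the troponin complex on the thin filament and switches contraction on. Fast and slow fibres use different isoforms of many of these proteins, and several slow isoforms also serve in the heart. White fat is built mainly of adipocytes, which are not known for making these contractile proteins.

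The deposited value of a spot is its processed signal, that is, its brightness after the scanner software subtracted the background. It was divided here by the 75th percentile of the same array, and the quotient is called the scaled signal. Differences are given on the log2 scale of the scaled signal, on which 1 is a doubling. A gene is represented by its brightest probe. The signal of a probe depends on its own sequence, so that levels are compared between arrays for 1 gene and not between genes. The share of spots well above background was 71.2% to 82.0%, depending on the array, and the representing probes of all 32 muscle genes were well above background on all 6 arrays. Pearson correlations over all genes were 0.964 to 0.987 between arrays. One slide carried the 3 WT arrays together with hNAG-1 replicate 1, and a different slide, without WT arrays, carried hNAG-1 replicates 2 and 3. The adipocyte markers were bright on every array: all 8 of 8 passed the filter on dim probes, their scaled signals summed to 1276 to 1562 in WT and 1569 to 1838 in hNAG-1 pools, and their spans from the lowest to the highest array ran from 0.30 to 2.06 on the log2 scale. The narrowest was Adipoq, which encodes the hormone adiponectin and is named here after its value was seen, and the widest were the hormones leptin (Lep) at 2.06 and resistin (Retn) at 1.10.

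The muscle genes rose and fell together from pool to pool, and they differed widely even between pools of the same genotype. The 2 highest arrays were WT replicate 1 and hNAG-1 replicate 2 for 32 of 32 muscle genes, an order found for 5.72% of all genes and called the common order here. The highest array was hNAG-1 replicate 2 for 30 of them and WT replicate 1 for 2, Myh1 and Myl2. The lowest array was WT replicate 3 for 27, hNAG-1 replicate 1 for 4 and WT replicate 2 for 1. Set against each gene's own mean over the 6 arrays, the mean of the 32 genes was 1.14, -0.18 and -1.35 on the log2 scale on WT replicates 1, 2 and 3. It was -0.87, 1.77 and -0.52 on hNAG-1 replicates 1, 2 and 3. Each genotype therefore held 1 pool with high muscle RNA and 2 pools with less, and the genotypes overlapped throughout. In pooled tissue, a larger number of muscle fibres and more muscle RNA per fibre cannot be told apart.

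**Figure D1:**
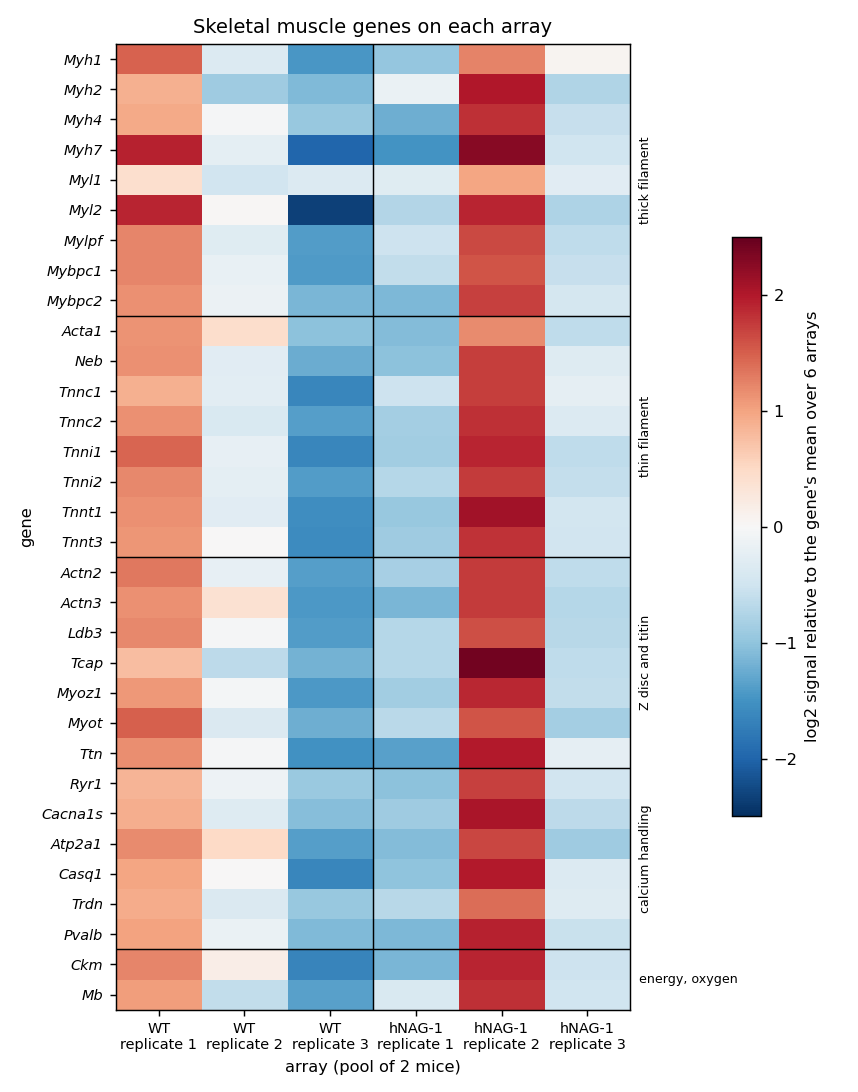
Colour map of the 32 skeletal muscle genes (vertical axis, grouped by role) on the 6 arrays (horizontal axis, each a pool of 2 mice), where colour is the log2 signal relative to the gene's mean over the 6 arrays, red above and blue below. The columns of WT replicate 1 and hNAG-1 replicate 2 are red for every gene, and WT replicate 3 and hNAG-1 replicate 1 are blue for every gene.

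The size of these swings was measured as the span, the highest minus the lowest array on the log2 scale. The median span of the muscle genes was 3.11, which is 8.66-fold, against 0.68 for all genes. The span ran from 1.47 for Myl1 to 4.25 for Myl2, that is from 2.77-fold to 19.0-fold. It was at least 2 for 31 of the 32, against 11.7% of all genes. Most of it lay within a genotype: the median span over the 3 WT arrays alone was 2.57, and over the 3 hNAG-1 arrays alone it was 2.74, while all genes had 0.41 and 0.37. WT replicate 1 was above WT replicate 3 by a median of 5.93-fold over the 32 genes, with a range of 1.69-fold to 19.0-fold. hNAG-1 replicate 2 was above hNAG-1 replicate 1 by a median of 6.62-fold, with a range of 2.46-fold to 13.5-fold. Between the highest pools of the genotypes the gap was smaller, hNAG-1 replicate 2 lying at a median of 1.51 times WT replicate 1. These are ratios of single pools, which have no replicate of their own.

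**Figure D2:**
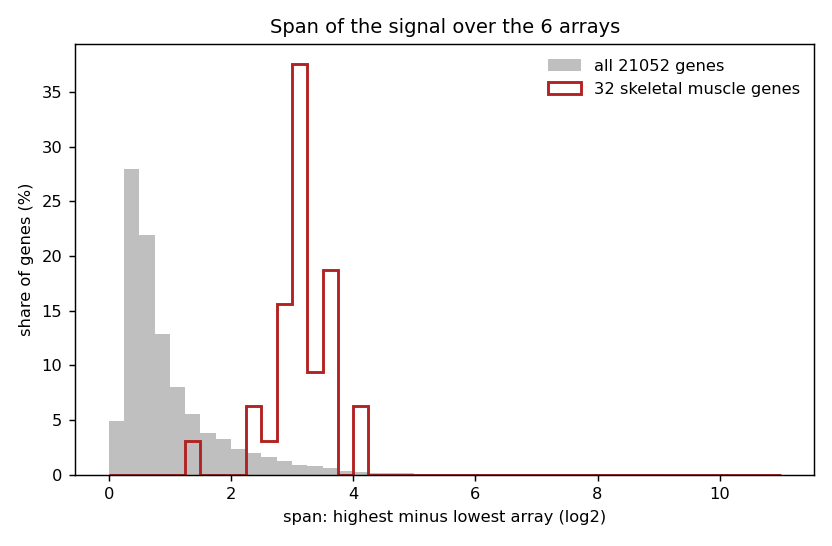
Share of genes in percent (vertical axis) by the span of the signal, the highest minus the lowest of the 6 arrays in log2 units (horizontal axis), for all 21052 genes (grey) and the 32 skeletal muscle genes (red outline). The muscle genes lie between 1.47 and 4.25, around a median of 3.11, and the median of all genes is 0.68.

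Among the proteins of the thick filament, the fast myosin heavy chain Myh4, the motor of the fastest fibres, had scaled signals of 72.4, 37.0 and 19.5 on WT replicates 1 to 3, in this order, and of 16.3, 135 and 25.4 on hNAG-1 replicates 1 to 3. The lowest and the highest pool were both hNAG-1, and the WT pools lay between them. The log2 fold change of hNAG-1 over WT was 0.03 (SE 0.90; adjusted p = 0.992, limma with Benjamini-Hochberg adjustment).

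Myh2, the heavy chain of fast oxidative fibres, had 28.5, 8.38 and 7.22 in WT and 13.9, 61.7 and 9.22 in hNAG-1 pools, in the same order of replicates. It differed from most muscle genes in that hNAG-1 replicate 1 ranked next after the 2 high pools. Its log2 signal averaged 3.58 ± 1.09 (SD, n = 3) in WT and 4.32 ± 1.44 (SD, n = 3) in hNAG-1 pools, and its log2 fold change of 0.73 (SE 0.87) was the highest of the 32, with the lowest adjusted p, 0.752 (limma, Benjamini-Hochberg). Myh1, the heavy chain of the remaining fast fibre type, had 18.7, 5.28 and 2.46 in WT and 15.9 as the highest and 3.44 as the lowest of the hNAG-1 pools, with hNAG-1 replicate 3 at 7.06. It was the gene in which WT replicate 1 stood clearly above hNAG-1 replicate 2, which lay at 0.85 of it.

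The slow isoforms had wide spans. Myh7, the heavy chain of slow fibres and of the heart ventricle, had 12.8, 2.85 and 0.858 in WT and 1.20, 16.3 and 2.38 in hNAG-1 pools, a span of 4.24 or 19.0-fold. Its regulatory partner Myl2, the light chain of slow fibres and ventricle, had 1.26, 0.339 and 0.0662 in WT and 0.200, 1.26 and 0.197 in hNAG-1 pools. In both genes the high pools, 1 of each genotype, stood far above the other 4. Over the 5 slow isoforms Myh7, Myl2, Tnnc1, Tnni1 and Tnnt1 the median span was 3.64, with a range of 3.36 to 4.25. Over 14 fast isoforms it was 3.07, with a range of 1.47 to 3.61, and the ranges overlapped. Myl2, Tnni1 and Tnnc1 were dim on WT replicate 3, at processed signals of 61.9, 51.9 and 51.4, where ratios depend more on the background subtraction. With normexp background correction the log2 fold changes of Myl2 and Tnni1 changed sign, from 0.27 to -0.11 and from 0.27 to -0.25.

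Myl1, an essential light chain of fast fibres, had the narrowest span. Its scaled signals were 33.8, 18.1 and 20.0 in WT and 20.4, 50.1 and 20.8 in hNAG-1 pools, so that the 4 pools below the highest 2 lay close together. A dimmer probe of Myl1 spanned 2.03 on the log2 scale, against 1.47 for the bright one. Mylpf, the regulatory light chain of fast fibres, and the myosin-binding proteins Mybpc1 and Mybpc2, which hold the thick filament in register, followed the common order with spans of 3.05, 2.99 and 2.86. Over the 9 thick filament genes the median span was 3.05 and the median log2 fold change was 0.25. Of these fold changes 9 of 9 were above 0, against 58.9% of all genes. The muscle genes moved together over the pools, so this count and the like counts below are not of independent genes.

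In the thin filament, skeletal actin (Acta1) had scaled signals of 27.4, 17.0 and 6.20 in WT and 5.90, 28.6 and 8.08 in hNAG-1 pools. WT replicate 2 stood nearer to WT replicate 1 than in most muscle genes, and the genotypes overlapped. Its log2 fold change of -0.36 (SE 0.79; adjusted p = 0.868, limma, Benjamini-Hochberg) was the lowest of the 32. The actins are nearly identical as proteins and their transcripts are related, so that the signal of an actin probe may be uncertain where other actins are abundant. Cardiac actin (Actc1) had log2 signals of 3.54, 3.89 and 0.94 in WT and 0.40, 0.29 and 1.59 in hNAG-1 pools, and smooth muscle actin (Acta2, chosen after its values were seen) had 6.66, 6.86 and 4.61 in WT and 3.88 to 4.89 in hNAG-1 pools. Both were high on WT replicates 1 and 2, and neither was high on hNAG-1 replicate 2. The part of other actins in the Acta1 signal was not tested. The same reservation holds for the heavy chains Myh1, Myh2 and Myh4, which are close paralogs from one gene cluster. Their probes lie on chromosome 11 (mm7) at chr11:67306002-67306061, chr11:67279016-67279075 and chr11:67341898-67341957.

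The troponins, the calcium switch of the thin filament, followed the same pools. Tnni2, the fast isoform of the inhibitory subunit, had 60.1, 22.1 and 9.97 in WT and 16.0, 87.5 and 17.4 in hNAG-1 pools. Tnni1, the slow isoform, had 0.471, 0.150 and 0.0555 in WT and 0.0944, 0.648 and 0.111 in hNAG-1 pools. Each had a Pearson correlation of 0.997 over the 6 arrays with the mean of the other 31 muscle genes. It is given as a description, since the arrays share a scale and some of them share a slide. Of the subunits that tie the complex to tropomyosin, fast Tnnt3 had 15.8, 7.38 and 2.47 in WT and 3.94, 25.8 and 5.29 in hNAG-1 pools. Slow Tnnt1 had 3.37, 1.26 and 0.523 in WT and 0.798, 6.52 and 1.12 in hNAG-1 pools. Fast and slow isoforms were thus high on the same pools and low on the same pools. The calcium-binding subunits, fast Tnnc2 and slow Tnnc1, spanned 3.22 and 3.36, and nebulin (Neb), the ruler of the thin filament, 2.96. The median span of the 8 thin filament genes was 3.29. Of their 8 log2 fold changes 7 were above 0, against 58.9% of all genes.

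The representing probes differ in sequence from one another, which does not show that a probe avoids the transcript of a related gene. The longest run of bases shared by any pair of the 32 representing probes was 12, over 496 pairs. The probes of a slow and a fast troponin T and of both sarcomeric α-actinins are shown, because both genes of each pair had the common order on probes of different sequence. They are printed from the array design in lower case with no base singled out, and their positions are those of mouse build mm7: Tnnt1 at chr7:4071141-4071200, Tnnt3 at chr7:138939629-138939854, Actn2 at chr13:12232837-12235333 and Actn3 at chr19:4756533-4757018. The design lists the ends of Tnnt1, Actn2 and Actn3 in descending order, on the reverse strand, and those of Tnnt3 in ascending order. The probes of Tnnt3, Actn2 and Actn3 have 60 bases within longer intervals, so they join parts of the transcript that are apart in the genome.
Tnnt1: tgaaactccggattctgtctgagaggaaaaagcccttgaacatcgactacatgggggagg
Tnnt3: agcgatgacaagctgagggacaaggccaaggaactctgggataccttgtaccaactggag
Actn2: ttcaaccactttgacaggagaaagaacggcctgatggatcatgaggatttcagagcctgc
Actn3: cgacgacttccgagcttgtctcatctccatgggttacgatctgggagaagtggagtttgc

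At the Z disc, Actn2, the α-actinin of all fibres, had 0.95, 0.329 and 0.146 in WT and 0.214, 1.27 and 0.245 in hNAG-1 pools. Actn3, the α-actinin of fast fibres, had 4.77, 2.82 and 0.804 in WT and 0.986, 7.25 and 1.32 in hNAG-1 pools. For both, the lowest pool was WT replicate 3 and the highest hNAG-1 replicate 2, and the log2 fold changes were 0.18 (SE 0.95) and -0.07 (SE 0.98). Tcap, which caps titin at the Z disc, stood out for its highest pool: it had 7.21, 2.69 and 1.88 in WT and 2.60, 22.4 and 2.73 in hNAG-1 pools. Its hNAG-1 replicate 2 lay at 3.11 times WT replicate 1, the widest such gap of the 32 genes, and the other hNAG-1 pools lay within the WT range. The giant spring protein titin (Ttn) had 3.07, 1.34 and 0.477 in WT and 0.533, 5.40 and 1.18 in hNAG-1 pools. The Z disc proteins Ldb3, Myoz1 and Myot, which bind α-actinin or filamin, had spans of 3.02, 3.34 and 2.79 in the common order. Over these 7 genes the median span was 3.17, and 6 of 7 fold changes were above 0, against 58.9% of all genes.

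Calcium handling showed the same pools. The release channel of the sarcoplasmic reticulum, Ryr1, had 1.32, 0.680 and 0.390 in WT and 0.360, 2.40 and 0.531 in hNAG-1 pools, and its voltage sensor Cacna1s had 2.88, 1.23 and 0.739 in WT and 0.833, 6.36 and 0.984 in hNAG-1 pools. Atp2a1, the pump that returns calcium to the reticulum of fast fibres, had 5.84, 3.63 and 0.988 in WT and 1.21, 8.13 and 1.38 in hNAG-1 pools. In Atp2a1, as in Actn3 and Acta1, WT replicate 2 stood well above the 3 lowest pools, and these were the 3 genes with a fold change below 0, at -0.21 (SE 0.98) for Atp2a1. The store protein Casq1 and the fast-fibre calcium buffer Pvalb spanned 3.61 and 3.04, and Trdn, which links Casq1 to the release channel, spanned 2.34. Over the 6 genes the median span was 3.04.

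The muscle creatine kinase Ckm, which buffers ATP, had 2.52, 1.22 and 0.346 in WT and 0.487, 4.05 and 0.758 in hNAG-1 pools. Myoglobin (Mb), which stores oxygen, had 9.08, 2.90 and 1.73 in WT and 3.37, 15.6 and 3.11 in hNAG-1 pools. Both kept the common order of pools. Next after the 2 high pools ranked WT replicate 2 for Ckm and hNAG-1 replicate 1 for Mb. Their spans were 3.55 and 3.17.

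Across the 32 genes, Pearson correlations of each with the mean of the others over the 6 arrays ran from 0.908 to 0.997, with a median of 0.988, and 28 were at least 0.95. The lowest were those of Myl1 (0.908), Myh2 (0.910), Acta1 (0.936) and Myh1 (0.941). The pattern held for most other probes of these genes, though not for all. Of 28 dimmer probes for 15 of the genes, 26 spanned at least 2 and 27 were highest on WT replicate 1 or hNAG-1 replicate 2, and their spans ran from 1.06 to 4.24. A dimmer probe of Cacna1s and one of Ldb3 gave a log2 fold change of the opposite sign, -0.52 and -0.54. That probe of Ldb3 was highest on WT replicates 1 and 2. A dimmer probe of Ryr1 was highest on hNAG-1 replicate 3 and lowest on WT replicate 1.

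The comparison of genotypes asks whether muscle RNA differed between hNAG-1 and WT pools, against a spread this wide. After Benjamini-Hochberg adjustment of the limma p-values across all genes, 0 of the 32 passed a threshold of 0.05, as did 0.0% of all genes. At an unadjusted p under 0.05, 0 of 32 passed with limma, against 12.6% of all genes, 8.46% higher and 4.11% lower in hNAG-1 pools. The smallest unadjusted p of limma among the 32 was 0.435. The log2 fold change was above 0 for 29 and below 0 for 3, against 58.9% of all genes above 0, and its median was 0.26, against 0.06 for all genes. For 32 of 32 the fold change was smaller than its own standard error, which held for 49.1% of all genes. The arrays of the genotypes overlapped for every muscle gene, so 0 of 32 were apart, against 20.3% of all genes. The median standard error was 0.92 on the log2 scale, against 0.18 for all genes. The 95% intervals reached a median of 2.27 to either side of the fold change, and over the 32 genes they ran from -3.09 to 3.47, so that differences of several-fold in either direction were not detectable with these pools.

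The sign of the difference between genotypes changed with single pools. Without hNAG-1 replicate 2 the median log2 fold change was -0.61 and all 32 were below 0, and without WT replicate 3 it was -0.39 with 27 below 0. Without WT replicate 1 it was 0.90 and all 32 were above 0, without hNAG-1 replicate 1 it was 0.77 with all 32 above 0, and without hNAG-1 replicate 3 it was 0.54 with 31 above 0. On the slide that held both genotypes, with 3 WT arrays and 1 hNAG-1 array, it was -0.74, and 31 of 32 were below 0. With WT replicate 1 and hNAG-1 replicate 2 both left out, a choice made after seeing the data, the median was 0.10, with 22 genes above and 10 below 0, and the median span fell to 1.21, against 0.56 for all genes. The muscle genes thus still spanned more than the median gene among the 4 lower pools. No muscle gene passed the adjusted threshold of limma in any of these comparisons.

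**Figure D3:**
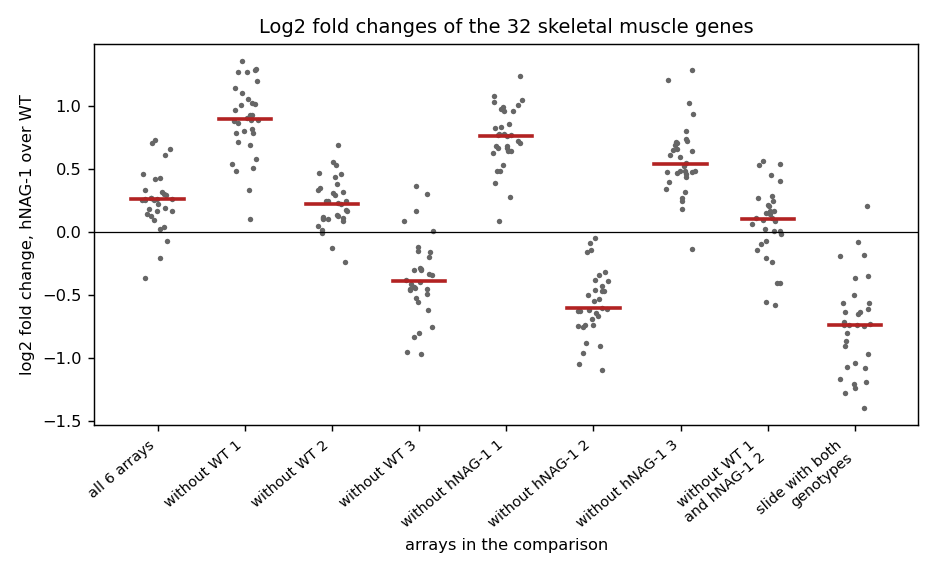
Log2 fold change of hNAG-1 over WT (vertical axis) of each of the 32 skeletal muscle genes (points, spread sideways for visibility, with the median as a red bar) for all 6 arrays and with arrays left out (horizontal axis). The median is 0.26 with all arrays, 0.90 without WT replicate 1 and -0.61 without hNAG-1 replicate 2.

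Most other genes of skeletal muscle, 40 of 51, kept the same order of pools. Of 20 further sarcomere proteins that passed the filter on dim probes (of 21 listed), 19 had their highest values on WT replicate 1 and hNAG-1 replicate 2, with a median span of 2.96. The widest were the kinase Mylk2, which phosphorylates the regulatory light chain, at 3.79, the Z disc protein Myoz2 at 3.71 and the actin nucleator Lmod2 at 3.44. Of 13 genes of muscle energy metabolism 8 had that order, and the median span of the 13 was 2.55, the widest being the mitochondrial creatine kinase Ckmt2 at 3.57, the AMP deaminase Ampd1 at 3.35 and the muscle subunit of cytochrome c oxidase Cox6a2 at 3.34. Of 18 genes of the muscle membrane and of excitation-contraction coupling 13 had it, and the median span of the 18 was 2.52. The widest were the calcium pump regulator sarcolipin (Sln) at 4.06 and the reticulum protein Hrc at 3.52, both in the common order, and the synaptic kinase Musk at 3.21. Musk was highest on hNAG-1 replicate 2 and WT replicate 2, but its log2 signals were low, from -7.74 to -4.52. Of these 51 genes none passed the adjusted threshold of limma in either direction. At an unadjusted p under 0.05 with limma, 1 was lower in hNAG-1 pools, Chrnb1, a subunit of the acetylcholine receptor, at a log2 fold change of -0.43 (SE 0.12), named here after its value was seen.

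The myogenic factors went the same way in part, at low signal. Of 6 that passed the filter (of 7 listed, Myf5 not passing), 4 had the common order and 3 spanned at least 2. The differentiation factor Myog had log2 signals of -3.16, -4.69 and -5.90 in WT and -4.66, -2.70 and -4.80 in hNAG-1 pools. Myf6, a factor of mature fibres, had -1.23, -3.09 and -3.77 in WT and -3.66, -1.52 and -3.15 in hNAG-1 pools, and the growth inhibitor myostatin (Mstn) had the widest span of the list, 3.84. Of 4 isoforms of developing muscle 2 had the common order, and the perinatal heavy chain Myh8 spanned 2.85 in it, with a sequence close to those of the adult fast chains. The embryonic chain Myh3 spanned 3.24, and its highest array was hNAG-1 replicate 1.

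The 15 genes most like the muscle genes were picked as those with the highest Pearson correlation to their mean profile over the 6 arrays, among other genes with a span of at least 2. Their correlations ran from 0.992 to 0.999 and their spans from 2.43 to 3.79. They were Mylk2, Fitm1, Ampd1, Rpl3l, Klhl31, Hhatl, Klhl41, Eno3, Dhrs7c, Xirp2, Tbx15, Myom2, Myh8, 1500010C09Rik and Pgam2. Of these, 7 were in the lists of other muscle genes and 1, Myh8, in the list of developmental isoforms. Of all 2437 other genes with a span of at least 2, 95 had a correlation of at least 0.95, that is 3.90%.

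Markers of some other tissues varied between pools as well, and their high pools were in part the same. Others varied little: the median span was 0.69 for mesothelium, 0.68 for endothelium and 0.61 for macrophages. It was 0.58 for erythroid and 0.76 for Schwann cell and myelin markers, against 0.68 for all genes. None of the genes in these lists had the common order. Smooth muscle markers (7 of 7 passing) had list medians of 1.41, 1.78 and -1.03 on WT replicates 1, 2 and 3 and of -1.15, -0.97 and -0.26 on hNAG-1 replicates 1, 2 and 3, relative to each gene's mean. Their scaled signals summed to 61.8 to 412 in WT and 58.6 to 93.9 in hNAG-1 pools, and those of the 32 skeletal muscle genes to 98.2 to 432 and 123 to 689. WT replicate 1 was thus high for both kinds of muscle, and hNAG-1 replicate 2 was high for skeletal and low for smooth muscle. Cnn1, an actin-binding protein of smooth muscle, had log2 signals of 6.33, 6.54 and 2.88 in WT and 3.04, 3.11 and 4.14 in hNAG-1 pools, and the smooth muscle myosin Myh11 had 3.92, 4.68 and 1.12 in WT and 1.15, 1.43 and 2.17 in hNAG-1 pools.

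Of the heart markers 8 of 9 passed, Ryr2 not passing, and 2 of them had the order of the skeletal muscle genes. The list medians were 0.14, 0.13 and -0.35 on WT replicates 1 to 3 and -0.51, 0.25 and -0.05 on hNAG-1 replicates 1 to 3. The scaled signals of the 8 genes summed to 13.3, 16.1 and 2.85 in WT and 2.01, 2.61 and 4.03 in hNAG-1 pools. These sums were high on WT replicates 1 and 2 and not on hNAG-1 replicate 2, but a sum weighs bright genes most. On WT replicates 1 and 2 it came mostly from Actc1, at log2 signals of 3.54 and 3.89. The list median was instead highest on hNAG-1 replicate 2, at 0.25. Actc1, with the values given above, and the cardiac troponin T Tnnt2 were highest on WT replicate 2. The atrial heavy chain Myh6 spanned 3.83 with log2 signals of -1.17, -3.00 and -5.00 in WT and -4.72, -1.25 and -3.97 in hNAG-1 pools, and the median span of the list was 1.46. Brown fat markers (6 of 7 passing, Zic1 not passing) had none with that order, and Ucp1, the uncoupling protein of brown fat, was highest on WT replicate 2. Exocrine pancreas markers (6 of 8 passing, Cela2a and Pnlip not passing) stood at a list median of 5.81 above their own means on WT replicate 2, and their scaled signals summed to 0.293 to 19.5 in WT and 0.284 to 0.412 in hNAG-1 pools. Liver genes, a list added after the data were seen, had list medians of -0.75, 4.51 and 0.70 in WT and -3.66, 1.98 and -2.57 in hNAG-1 pools, with a median span of 8.11, and their scaled signals summed to 10.2 to 307 in WT and 2.07 to 67.6 in hNAG-1 pools. Liver genes were next highest on hNAG-1 replicate 2. Pancreas and liver genes were both highest on WT replicate 2, where the mean of the muscle genes was close to its average over the arrays. The adipocyte list had none of its 8 genes with the order of the muscle genes, and a median span of 0.64. The part of other tissues in the muscle signal was not tested.

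**Figure D4:**
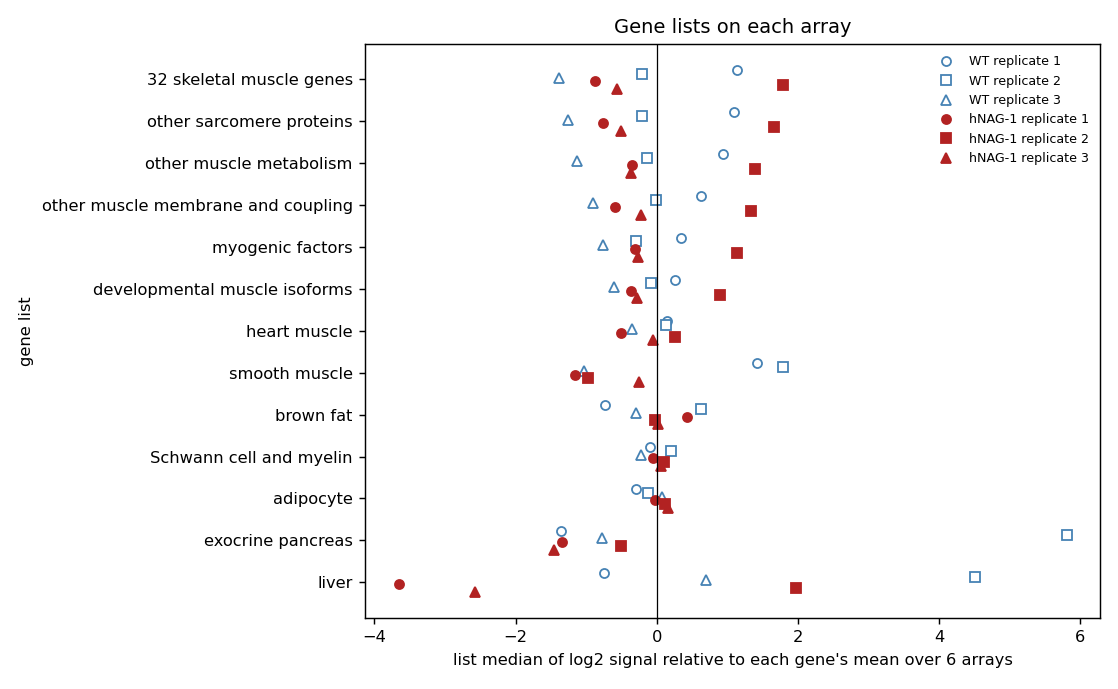
List median of the log2 signal relative to each gene's mean over the 6 arrays (horizontal axis) for gene lists (vertical axis), with 1 symbol per array, open blue for WT and filled red for hNAG-1. WT replicate 1 and hNAG-1 replicate 2 lead the skeletal muscle lists, WT replicates 1 and 2 lead smooth muscle, and WT replicate 2 leads pancreas and liver.

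The upstream sequence of the muscle genes was searched for the letters that muscle regulators are known to bind. Promoters of 24 of the 32 genes were in the RefSeq table (build GRCm38.p6), and those of Myot, Tnni2, Actn3, Neb, Tnnt3, Tcap, Myoz1 and Trdn were not. The 250 bases before the first listed start were searched on both strands. CAGCTG, a form of the E box CANNTG that factors of the MyoD family bind, was in 10 of the 24, or 41.7%, against 12.8% of 27025 promoters. The general E box CANNTG, which includes CAGCTG, was in 19 of 24, against 66.0% of all. TATAAA, a form of the TATA box, was in 5 of 24, against 13.0% of all. The MEF2 motif, which can overlap TATAAA, was in 4 of 24, against 3.01% of all, and the CArG box, which serum response factor binds, was in 3 of 24, against 1.40% of all. A match describes letters in this window and shows no binding. The genes were listed by name, and a link between these motifs and the differences among pools was not tested.

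The promoters of a fast myosin, skeletal actin, creatine kinase and a slow troponin are shown as examples of genes of different roles that hold CAGCTG. Capitals mark CAGCTG and any TATAAA, MEF2 motif or CArG box, and the sequences run 5′ to 3′ on the strand of the gene (GRCm38.p6): Myh4 at chr11:67237562-67237811 on the + strand, Acta1 at chr8:123894776-123895025 on the - strand, Ckm at chr7:19410844-19411093 on the + strand and Tnni1 at chr1:135799171-135799420 on the + strand. Myh4 held all 4 motifs, Acta1 held all but MEF2, and Ckm and Tnni1 held CAGCTG alone.
Myh4: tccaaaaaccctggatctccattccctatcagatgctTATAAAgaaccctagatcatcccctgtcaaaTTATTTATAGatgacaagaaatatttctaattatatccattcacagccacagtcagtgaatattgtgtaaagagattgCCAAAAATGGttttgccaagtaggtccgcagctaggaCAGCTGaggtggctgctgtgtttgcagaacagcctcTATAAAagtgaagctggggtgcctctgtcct
Acta1: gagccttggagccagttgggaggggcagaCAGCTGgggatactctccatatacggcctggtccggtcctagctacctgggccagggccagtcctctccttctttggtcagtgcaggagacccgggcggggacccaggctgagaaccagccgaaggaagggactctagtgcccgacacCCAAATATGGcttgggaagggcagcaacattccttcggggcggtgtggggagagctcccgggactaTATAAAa
Ckm: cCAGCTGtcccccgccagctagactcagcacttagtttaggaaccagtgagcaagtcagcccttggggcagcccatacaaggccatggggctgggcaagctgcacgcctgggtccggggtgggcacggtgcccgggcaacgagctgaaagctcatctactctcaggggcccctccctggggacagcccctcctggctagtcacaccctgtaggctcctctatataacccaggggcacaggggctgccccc
Tnni1: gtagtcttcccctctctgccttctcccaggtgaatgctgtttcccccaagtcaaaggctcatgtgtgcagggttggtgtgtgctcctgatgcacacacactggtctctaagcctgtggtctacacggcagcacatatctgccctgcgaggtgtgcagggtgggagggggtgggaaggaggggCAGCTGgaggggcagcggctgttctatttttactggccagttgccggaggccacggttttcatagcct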

How the data were processed

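The authors deposited scanner files, 1 per array, written by Agilent Feature Extraction, whose version the submitters' notes give as 9.5. In these, spot intensity was background-subtracted within the array, and a table that came with them holds the same intensity values. That table was equal to the processed signal in all 45018 spots of each array, so no normalization between arrays had been applied. The paper's methods name an Affymetrix array, whereas the deposited files are of Agilent arrays. Probe positions are those of the array design (mm7).

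From these intensity values, 1639 control spots and outlier spots were dropped, replicate spots were averaged per probe, and values were put on the log2 scale relative to the 75th percentile of their array. The 41174 probes were named through accession, symbol or synonym in a table of mouse RefSeq genes where possible, and 8455 kept the name in the file. The probe brightest on average over the 6 arrays represented a gene, and it had to be well above background on at least 3 arrays. The test between genotypes was that of limma (version 3.58.1, in R 4.3.3), fitted with lmFit and eBayes over all genes, two-sided, and adjusted by Benjamini-Hochberg at a threshold of 0.05, and the script was tested on simulated data. Lists of other muscle genes and of markers of other tissues were described by counts and medians, without set tests. Members and lists were chosen with earlier results of these data known.

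Genes named in the text are the 32 members, up to 3 genes per list with the widest span, the 15 other genes most like the members' mean profile, and those said to be chosen after their values were seen. Results were recomputed with normexp background correction (offset 50), with quantile normalization, with a stricter filter or none, with other choices of probe, with robust and trended variances, with slide or replicate number as a block, on the mixed slide alone (3 WT arrays and 1 hNAG-1 array), and without each array in turn.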

Additional observations from a re-analysis of the deposited data

How the results depend on the processing

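No muscle gene passed the adjusted threshold of limma under any of 18 alternatives, 17 of them planned, and the smallest adjusted p among them was 0.608 (limma, Benjamini-Hochberg). Of 576 fold changes of single genes under these alternatives, 137 had another sign than with all arrays. The median log2 fold change of the 32 genes was 0.26, and it ran from -0.61 to 0.90 when 1 array was left out. It was -0.74 with slide as a fixed block or within the slide with both genotypes, 0.22 with slide as a random block, 0.23 with quantile normalization and 0.22 with normexp, which moved the median of all genes from 0.06 to -0.20. The median span was 3.11, 2.57 to 3.11 when 1 array was left out, 3.07 with quantile normalization and 2.93 with normexp. With WT replicate 1 and hNAG-1 replicate 2 both left out, chosen after seeing the data, it was 1.21, since these are the arrays on which the genes were highest. With intensity trend and robust variances 107 genes were called higher and 23 lower over all genes, against 0 and 0, and 0 of the 32.

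The replicate numbers are not stated to pair the pools. Deviations from the genotype means correlated at 0.10, 0.51 and 0.09 between pools of the same number, and not every pool correlated best with its own number. With the replicate block 0 of 32 muscle genes and 0 of all genes were called, and the median log2 fold change was 0.26. The slide is confounded with hNAG-1 replicates 2 and 3. The 6 pools and their wide spread in muscle RNA limit what could be detected, and intervals cover the spread between pools alone.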
